A study of Mus musculus with 13 samples.

Results

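Chief cells of the mouse stomach, sorted for a reporter of Troy, were compared with whole glands of the gastric corpus, and the genes gained and lost across the array are described here. The comparison rests on 5 of the 13 arrays in the study, chosen by their titles: 3 arrays of sorted chief cells (chief a, b and c) and 2 arrays of whole corpus glands (glands a and b). Chief cells came from Troy-EGFP-ires-CreERT2 mice, in which a green fluorescent reporter and an inducible Cre are expressed from the locus of Tnfrsf19, the gene that encodes Troy. For each sorted array, glands of 10 mice were pooled, freed with EDTA, digested with trypsin and sorted by flow cytometry to about 100000 cells. Whole glands were processed directly, without trypsin or sorting, so cell type and handling cannot be told apart between the groups. The labels give neither the genotype nor the number of the mice behind the gland arrays, and no age or sex for any group. A further 2 arrays held Troy-positive parietal cells, which were trypsinized and sorted in the same way from the same strain. Their levels are given beside those of chief cells, and they share the estimate of the spread. One protocol text speaks of intestines, but every tissue label says gastric corpus, and that is used here. No label states that arrays of a group came from separate experiments, and the p-values measure only the spread between these arrays.

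Corpus glands of the stomach hold mucous pit cells at the surface, mucous neck cells and acid-secreting parietal cells in the middle, and chief cells at the base. Chief cells store pepsinogen, gastric intrinsic factor and other secreted proteins in large granules, and the transcription factor Bhlha15 (Mist1) is required for that architecture. Troy and Lgr5 are both receptors tied to Wnt signalling, a pathway that keeps stem cells of the gut epithelium, and both mark cells at the gland base. Tuft cells, which sense the lumen with the machinery of taste, and hormone-producing enteroendocrine cells are scattered along the gland. Dissociation of a tissue into single cells is known to induce immediate early genes, transcription factors and feedback phosphatases that respond to a stimulus without new protein synthesis.

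Levels are log2 intensities as deposited, a difference is the log2 level in chief cells minus that in glands, and SE is the standard error of the fit in limma. Array medians lay between 5.15 and 5.30, and a gene below the median is not shown to exceed background. Over all probesets, chief a correlated more with glands a and b (r = 0.978 and 0.966) than with chief b and c (0.953 and 0.950). Chief c correlated with both parietal arrays at 0.979 and 0.982 and with chief a and b at 0.950 and 0.961. The 3 chief arrays were thus far from alike, and counts below are also given without single arrays.

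The level of the sort gene and of defining transcripts was set against the labels. Troy (Tnfrsf19) itself stood at 8.53, 7.43 and 7.96 in chief a, b and c, at 5.40 and 4.92 in glands, and at 8.71 and 8.32 in parietal cells. All 5 sorted arrays were above both gland arrays, but since the cells were sorted on this locus the value checks the sort and is no finding. Pepsinogen C (Pgc), the main zymogen, was at 13.59, 13.62 and 13.46 against 13.37 and 13.26 in glands, close to the top of the scale in every array. Muc5ac, the mucin of pit cells, was at 12.01, 9.84 and 9.87 against 12.47 and 12.83. Every chief array was below both gland arrays for Muc5ac, chief a only slightly. Atp4a, the catalytic subunit of the gastric proton pump, was at 13.06, 12.62 and 13.22 in chief cells, 12.91 and 12.61 in glands and 13.16 and 13.08 in parietal cells. Atp4a, and on chief a also Muc5ac, was thus as bright in sorted chief cells as in glands or nearly so. Over 19 parietal cell genes the median difference from glands was 0.16 on chief a, -0.72 on chief b and 0.46 on chief c. The part of parietal and pit cell transcripts in the results was not tested.

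Of 18820 genes, 24 were higher in chief cells (0.128% of those tested) and 66 were lower (0.351%), at a limma adjusted p under 0.05. An unadjusted p under 0.05 was reached by 2832 genes, 1197 of them higher and 1635 lower. The median difference of all genes was 0.05. Among the 24 higher genes, 13 stood in lists of early response and stress genes. A further 4 stood in lists of cell identity, among them Tnfrsf19, which follows from the sort. The lists were chosen with earlier results of these data known, so these counts describe the calls and test no theme. Of the 66 that fell, 19 were small nuclear, nucleolar or vault RNAs, 7 were markers of tuft or enteroendocrine cells, and 35 stood in none of the lists used here. In 29 of the 66 every chief array lay below its array's median, so that the difference there is measured against a level not shown to exceed background. The same held for both gland arrays in 5 of the 24. By array, chief a was the highest chief array for 41 of the 66, and for 5965 of all 18820 genes. Chief c was the lowest for 37 of the 66, and for 6026 of all genes. For the 24 higher genes, chief b was highest in 14 (5595 of all genes) and chief c lowest in 16.

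**Figure D1:**
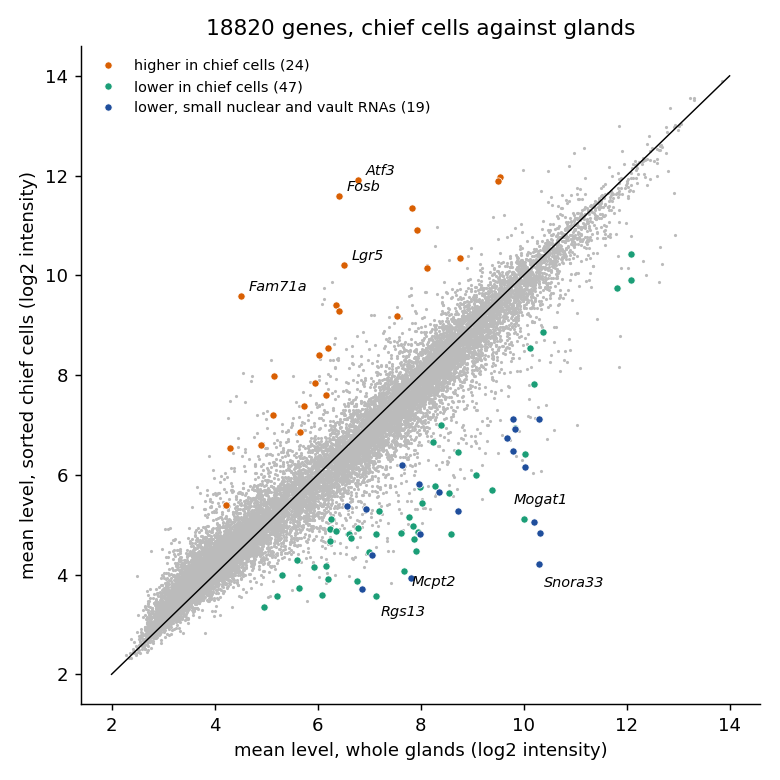
Mean level of each of 18820 genes in whole glands (x axis, 2 arrays) and in sorted chief cells (y axis, 3 arrays), both as log2 intensity; the line marks equal levels. The 24 higher genes lie up to 5.19 above the line, and the 66 lower ones, 19 of them small nuclear, nucleolar or vault RNAs, up to 6.10 below it.

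These counts depend on single arrays. Higher and lower genes numbered 223 and 217 without chief a, 5 and 20 without chief b, and 107 and 78 without chief c. Without glands a they numbered 44 and 196, and without glands b 4 and 13. They were 4 and 18 without either parietal array, since a lone parietal array adds nothing to the spread. No called gene changed its direction in any of these fits, but this could not have come out otherwise. In all 24 higher and 66 lower genes every chief array lay beyond both gland arrays, so leaving out an array keeps the direction. Between chief and parietal cells, which were handled alike, no gene passed in limma (0% of 18820), while 2279 had an unadjusted p under 0.05. In that comparison 1318 genes passed when chief c was left out.

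The largest gains were in genes of the AP-1 family, transcription factors that pair as dimers of Fos, Jun and Atf proteins. Fosb was at 11.86, 12.10 and 10.84 in chief cells and at 7.43 and 5.39 in glands. Atf3, a repressor and activator that many stresses induce, was at 12.00, 12.21 and 11.55 against 6.78 in both gland arrays. For both genes the groups were far apart, and parietal cells lay between them, at 10.18 and 9.86 for Fosb and 10.83 and 10.74 for Atf3. Fosb rose by 5.19 (SE 0.59, limma adjusted p = 0.0190) and Atf3 by 5.14 (SE 0.22, adjusted p = 0.000126). Jun rose by 2.40 (SE 0.32, adjusted p = 0.0306) and Jund by 1.57 (SE 0.24, adjusted p = 0.0462). Fos, the founding member, was at 11.40, 11.36 and 10.13 against 7.86 and 8.77 and missed the threshold (2.65, SE 0.45, adjusted p = 0.0604). Junb was at 8.77, 9.07 and 7.97 against 7.39 and 7.85, and Maff at 5.64, 6.95 and 5.34 against 4.31 and 3.94. In all, 4 of 12 AP-1 genes rose and none fell, with a median difference of 1.28 against 0.05 over all genes. All 3 chief arrays exceeded both gland arrays in 8 of the 12, against 16.3% of all genes. The 4 became 1 without chief b, without glands b or without either parietal array, and 2 without glands a.

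Early response genes outside that family rose as well. Dusp1, a phosphatase that switches off MAP kinases, was at 11.56, 11.55 and 10.94 in chief cells, 7.97 and 7.70 in glands and 10.56 and 9.98 in parietal cells. The zinc finger factor Egr1 was at 11.08, 11.64 and 9.99 against 7.80 to 8.06 in glands and 9.38 to 9.59 in parietal cells. Chief c was the lowest chief array for both genes, still above every gland array. Dusp1 rose by 3.52 (SE 0.27, limma adjusted p = 0.00333) and Egr1 by 2.97 (SE 0.43, adjusted p = 0.0381). Zfp36, which binds AU-rich messages and speeds their decay, rose by 2.03 (SE 0.25, adjusted p = 0.0254). The transcriptional repressor Nfil3 rose by 1.91 (SE 0.22, adjusted p = 0.0190) and the nuclear factor Csrnp1 by 1.43 (SE 0.19, adjusted p = 0.0306). These 5 were the only ones of 43 early response genes to pass, and none fell. The median difference was 0.78. At an unadjusted p under 0.05, 22 of the 43 were higher and 1 lower, against 1197 and 1635 of all 18820 genes. In 22 all chief arrays were above glands, against 16.3% of all genes. The 5 became 1 without chief b, without glands b or without either parietal array, 3 without glands a and 14 without chief c.

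Several early response genes were much more unequal between chief arrays and did not pass. The nuclear receptor Nr4a1 was at 10.34, 11.27 and 7.98 in chief cells, against 6.67 and 5.91 in glands and 8.11 and 7.56 in parietal cells. Egr2 was at 7.64, 9.60 and 5.51 against 4.42 and 4.40, and the secreted matrix protein Ccn1 at 10.02, 10.68 and 7.87 against 5.78 and 6.46. In these 3 genes, chosen after their values were seen, chief b was highest and chief c lay near the parietal arrays. Klf4, an early response gene that is also a factor of the differentiated surface epithelium, was at 9.16, 8.92 and 7.36 against 9.27 and 10.75.

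**Figure D2:**
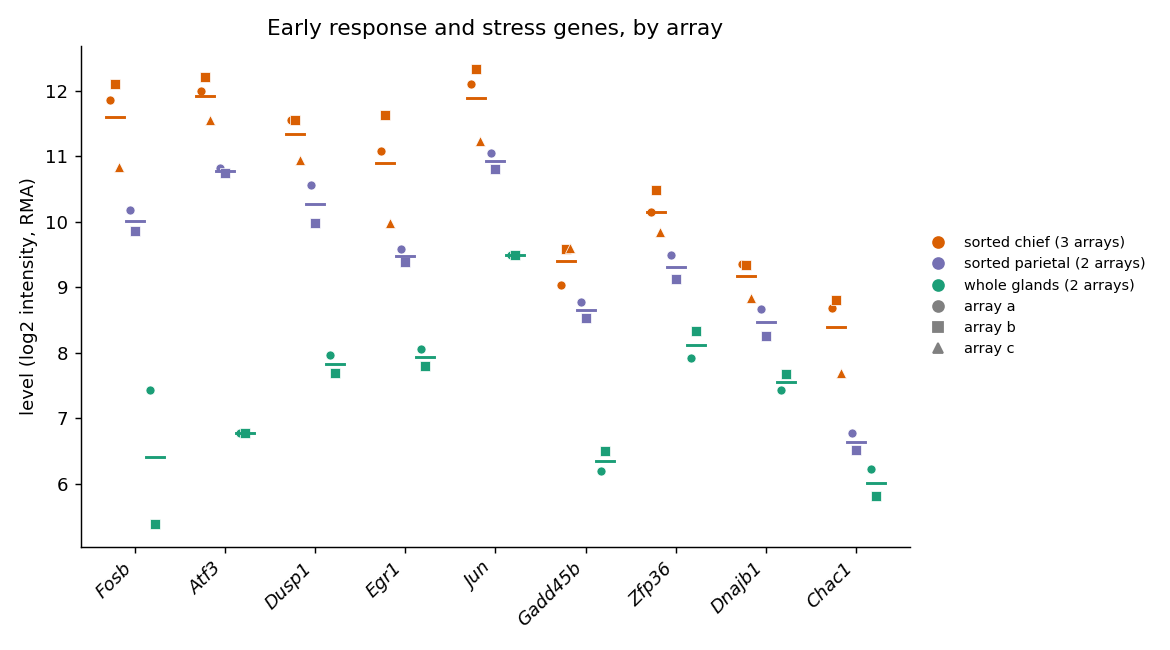
Level (log2 intensity) of 9 early response and stress genes on each of 7 arrays; colour gives the group, the symbol the array letter and the bar the group mean. All 3 chief arrays lie above both gland arrays for each gene, and the parietal arrays lie between them.

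The start-site regions of the higher genes were searched for motifs of stimulus-driven factors, because the members that rose include the factors themselves. RefSeq promoter sequences (build GRCm38.p6, 250 bases before to 50 after a start) were at hand for 19 of the 24 higher genes, with 24 promoters in all, and for 14749 of all genes. The cyclic AMP response element was searched as TGACGTCA, the AP-1 site as TGACTCA, the TCF site as CTTTGAT and the CArG box by its name, each on both strands. Of the 19 genes, 1 held a cyclic AMP response element (5.26%, against 2.77% of all genes), 2 an AP-1 site (10.5% against 5.27%), 1 a CArG box (5.26% against 1.64%) and 2 a TCF site (10.5% against 3.67%), 1 of them Troy, which is among the higher genes because of the sort. In the 37 lower genes with a promoter the shares were 2.70%, 5.41%, 2.70% and 5.41%, in the same order. The TATA box, searched as TATAAA on both strands, went the other way. It was held by 2 of the 19 higher genes (10.5%, against 13.8% of all genes) and by 13.5% of the lower ones. With so few genes these shares carry little precision. The matches in the higher genes other than Troy, those of the TATA box left out, are shown here. They run 5′ to 3′ on the gene's strand, with the matched letters in capitals.
Dusp1, chr17:26508598-26508625, minus strand, with the cyclic AMP response element: gtagggcgggTGACGTCAccgcccggtc
Zfp36, chr7:28379267-28379296, minus strand, with the CArG box: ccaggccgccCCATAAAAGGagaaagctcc
Csrnp1, chr9:119983024-119983135, minus strand, with both AP-1 matches: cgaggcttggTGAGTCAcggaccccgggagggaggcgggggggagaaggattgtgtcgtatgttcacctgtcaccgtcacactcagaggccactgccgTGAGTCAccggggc
Lcn12, chr2:25494120-25494146, minus strand, with the AP-1 match: ggcacgtttcTGACTCAcctgtaggtg
Slc1a2, chr2:102706221-102706247, plus strand, with the TCF match: gaagagggacATCAAAGgccccaaatg
The Csrnp1 and Slc1a2 matches are the motifs read on the opposite strand. A match describes these letters only and shows no binding.

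Other stress lists gave 1 call each. Gadd45b, a sensor of growth arrest and damage signals, was at 9.04, 9.58 and 9.60 in chief cells, 6.20 and 6.50 in glands and 8.78 and 8.53 in parietal cells, a rise of 3.06 (SE 0.23, limma adjusted p = 0.00333). Of 12 growth arrest and p53 genes it was the only one called, a call kept without any single array. The median of the list was 0.45, 3 were higher and none lower at an unadjusted p under 0.05, and in 5 every chief array was above glands (16.3% of all genes). Ppp1r15a, which restores translation after stress, was at 9.35, 9.69 and 8.60 against 7.26 and 6.80 (adjusted p = 0.0529). The p53 target Cdkn1a was at 9.66, 8.46 and 10.70 against 10.16 and 10.85, with overlapping groups.

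Dnajb1, a co-chaperone of the cytosolic heat shock system, rose by 1.63 (SE 0.24, limma adjusted p = 0.0381), from 7.43 and 7.67 in glands to 9.35, 9.34 and 8.84. It was the only call among 15 heat shock genes, whose median was 0.49. Of the 15, 7 were higher and none lower at an unadjusted p under 0.05, against 1197 and 1635 of all 18820 genes. In 8 every chief array was above glands, against 16.3% of all genes. The call became 2 without chief c and 0 without chief b, either gland array or either parietal array. The constitutive chaperone Hspa8 was at 12.37, 12.15 and 12.05 against 12.21 and 12.14. Chac1, a glutathione-degrading enzyme induced by amino acid shortage, rose by 2.37 (SE 0.34, adjusted p = 0.0381) and was the 1 call among 15 genes of that response. The median of these was 0.41, with 5 higher and 1 lower at an unadjusted p under 0.05. On every chief array 7 were above glands (16.3% of all genes). Its call was lost without chief b, either gland array or either parietal array, and 2 passed without chief c. The parietal levels of Chac1, 6.77 and 6.52, were much nearer to glands (6.23 and 5.81) than to chief cells (8.68, 8.81 and 7.69). The cytokine feedback inhibitor Socs3 rose by 2.34 (SE 0.27, adjusted p = 0.0195), or 1.15 on a second, dimmer probeset. Of the 23 NF-kB and cytokine genes it was the only one called higher, while the alarmin Il33 was the only one called lower. The median of the list was 0.29, with 5 higher and 1 lower at an unadjusted p under 0.05. In 8 every chief array was above both gland arrays, against 16.3% of all genes, and in 2 every one was below, against 15.1%. The inflammatory cytokines Il6 and Tnf lay between 2.58 and 4.60 in chief cells and glands, below the array medians. None of 10 redox and metal response genes passed in limma (none higher and 7 lower at an unadjusted p under 0.05), the median was -0.55, and the quinone reductase Nqo1 was at 8.70, 7.34 and 6.15 against 9.71 and 11.17.

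Fam71a was higher by 5.08 (SE 0.26, limma adjusted p = 0.000326), at 9.63, 9.89 and 9.24 against 4.52 and 4.50. In the RefSeq table it is the direct neighbour of Atf3, with 0 genes between them. Parietal cells stood at 8.20 and 7.60 for Fam71a, between the groups as for Atf3. Whether its probeset reads its own transcript or one from the Atf3 locus was not tested.

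Small structural RNAs formed the clearest loss. Small nucleolar RNAs guide the chemical modification and the cutting of ribosomal RNA, and most are released from introns of other genes. Snora33 was at 4.18, 4.39 and 4.04 in chief cells, 10.40 and 10.20 in glands and 4.25 and 4.68 in parietal cells. Snora69 was at 5.13, 4.98 and 5.08 against 10.32 and 10.08, and Snord118 at 4.96, 5.07 and 4.48 against 10.77 and 9.85. All chief arrays lay below the array medians for these 3, and both gland arrays were far above them. Snora33 fell by 6.10 (SE 0.21, limma adjusted p = 6.14e-05), Snord118 fell by 5.47 (SE 0.30, adjusted p = 0.000474) and Snora69 fell by 5.14 (SE 0.19, adjusted p = 6.64e-05). In all, 16 of 59 small nucleolar and Cajal body RNAs fell and none rose, with a median difference of -1.36. In 42 of the 59 every chief array was below both gland arrays, against 15.1% of all genes. The 16 became 8 without chief b, 8 without glands a, 5 without glands b and 7 without either parietal array. Snora74a, at 5.63, 6.54 and 6.30 against 10.43 and 9.64, and Snord35a, Snora61 and Snora34 fell too, with differences of -3.88, -3.30, -3.18 and -3.14, as did Snora75, Snora3, Snora20 and Snora16a, with -2.69, -2.69, -2.68 and -2.14. Snora21 and Snord22 showed the smallest falls, with differences of -1.42 and -1.20. The 2 probesets of Snord118 hold identical values. Snora73a and Snora73b are direct neighbours, and they may share probes.

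Small nucleolar RNAs come in classes. Of 26 Snora genes, box H/ACA RNAs that for the most part guide pseudouridylation, 12 fell. Of 30 Snord genes, box C/D RNAs that for the most part guide methylation, 4 fell and the median was -1.23. One of these is Snord118, which serves the cutting of ribosomal RNA and is no methylation guide. The difference between the classes was not tested, and 0 of 3 Scarna genes passed. Snora genes were longer, with a median RefSeq length of 119 nt (56 to 205) against 69.5 nt for Snord genes (53 to 148). The 16 called RNAs had a median length of 121 nt and the other 43 one of 82 nt. Length and class were thus partly tied, with overlapping lengths, and their parts in the falls were not tested apart.

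The measured genes that carry these RNAs changed much less. By position in the RefSeq table, 37 of the 59 lie within a gene measured on the array, and the 32 such genes had a median difference of -0.07. None of the 32 passed, and they ranged from -0.80 to 0.27. A separate list of host genes, with 13 of 22 measured, had a median of -0.22. None of the 13 was called, and 11 were negative and 2 positive. The host transcript Snhg17, in neither set, was called lower and is given below. For the 9 called RNAs with a measured gene around them, the RNAs had a median of -3.14 and the genes one of -0.14. Snora33 lies in Rps12, a ribosomal protein gene at 9.70, 10.29 and 9.98 in chief cells against 10.11 and 10.15 in glands. Snora69 lies in Rpl39, at 12.48, 12.15 and 12.26 against 12.60 and 12.47. Snord47 lies in Gas5, a noncoding host gene, at 7.85, 8.44 and 7.30 against 8.08 and 8.38. In each of these pairs the groups overlapped for the surrounding gene and were well apart for the RNA inside it. This pairing was made after the values of the small RNAs were seen.

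**Figure D3:**
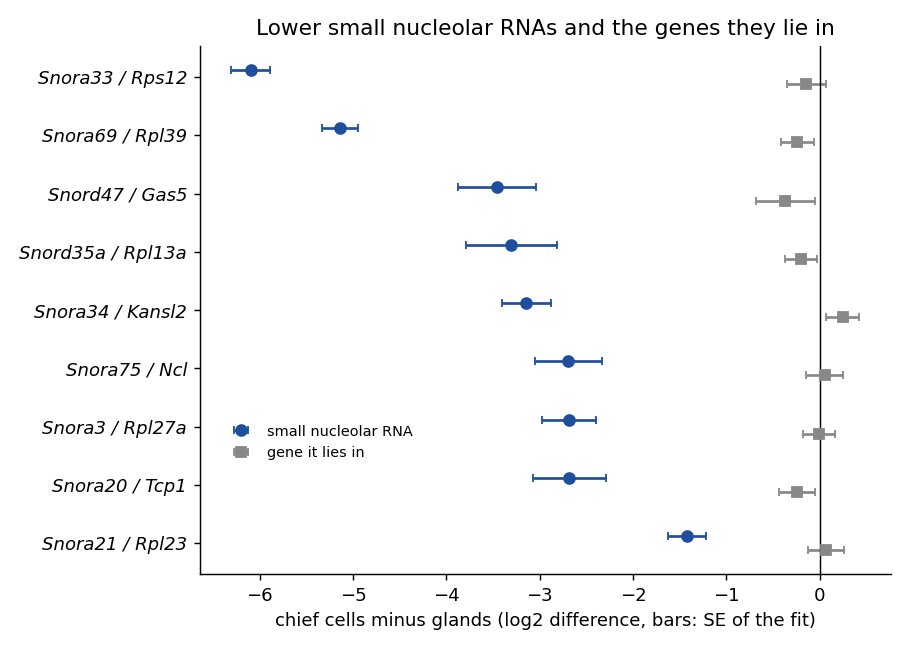
Log2 difference, chief cells minus glands, of 9 small nucleolar RNAs that passed the test (circles) and of the genes they lie in (squares); bars are the SE of the fit. The RNAs lie between -1.42 and -6.10, and the surrounding genes between -0.37 and 0.25.

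Some other short RNAs of the nucleus and cytoplasm fell as well. The vault RNA Vaultrc5 fell by 3.89 (SE 0.32, limma adjusted p = 0.00415), the nucleolar Rnu3a fell by 3.19 (SE 0.36, adjusted p = 0.0190) and the minor spliceosomal Rnu12 fell by 1.62 (SE 0.22, adjusted p = 0.0316). These were 3 of 12, with a median of -1.70, and became 1 without glands b or either parietal array. Of all genes, 0.351% were called lower. At an unadjusted p under 0.05, 8 of the 12 were lower and 1 higher. In 9 every chief array was below both gland arrays, against 15.1% of all genes. Rny3, a Y RNA, was at 11.26, 10.47 and 8.30 in chief cells against 12.52 and 12.25, and at 8.50 and 6.97 in parietal cells. Rmrp, the RNA of a ribosomal RNA processing enzyme, was at 9.47, 9.67 and 8.59 against 11.08 and 10.99. By contrast Rn7sk, an abundant regulator of transcription elongation, stood at 13.07, 13.08 and 12.95 against 13.09 and 13.02. These levels are close to the top of the scale, where a loss may not show. The long noncoding host transcript Snhg17 fell by 1.40 (SE 0.17, adjusted p = 0.0254), and its other 2 probesets differed by -1.67 and -0.94. For the 59 small nucleolar and Cajal body RNAs the median of parietal minus gland levels was -1.77, beside -1.36 for chief cells; both use the same gland arrays. The median of chief minus parietal levels was 0.23, with no gene called. Handling and cell type cannot be told apart in these losses.

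MicroRNA genes gave 1 call among 306, Mir23b, whose list had a median of 0.11. It was at 6.75, 6.77 and 7.03 in chief cells, 5.78 and 5.53 in glands and 6.69 and 6.64 in parietal cells, a rise of 1.20 (SE 0.18, limma adjusted p = 0.0462). The call was lost in 11 of 15 alternative fits, with differences of 1.07 to 1.32, among them each fit that left out an array other than chief a. Mir23b, Mir27b and Mir24-1 are made from one transcript and often reported together, so the sequences are shown, with the seed (bases 2 to 8 of a mature microRNA) in capitals. They come from RefSeq (GRCm38.p6) and lie on the plus strand of chromosome 13. For Mir23b the only mature form listed there is the 5p arm, and its hairpin is given too, with that arm in capitals. For Mir27b and Mir24-1 only the 3p form is shown, although a 5p form is listed for each.
mmu-miR-23b-5p, chr13:63300492-63300512: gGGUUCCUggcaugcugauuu
Mir23b hairpin, chr13:63300484-63300557: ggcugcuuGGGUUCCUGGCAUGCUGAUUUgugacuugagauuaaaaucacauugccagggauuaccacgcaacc
mmu-miR-27b-3p, chr13:63300760-63300780: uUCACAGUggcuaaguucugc
mmu-miR-24-3p, chr13:63301251-63301272: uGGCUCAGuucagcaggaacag
No seed is shared among these mature forms. The neighbours did not pass: Mir24-1 was at 4.91, 4.87 and 4.69 against 4.21 and 4.22 (adjusted p = 0.181), and Mir27b at 4.08, 3.86 and 3.71 against 3.34 and 3.58 (adjusted p = 0.460), all below the array medians. The gene Aopep, in which the cluster lies, was at 6.87, 6.94 and 7.03 against 6.85 and 6.92. The array reads precursor sequence, and no mature microRNA was measured.

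Turning to cell identity, receptors and targets of Wnt signalling rose in part. Lgr5, the receptor for R-spondins that marks stem cells of the intestine and pylorus, was at 10.32, 10.58 and 9.71 in chief cells, 7.31 and 5.73 in glands and 9.95 and 9.45 in parietal cells. Smoc2, a secreted matrix protein often found with Lgr5, was at 7.36, 7.48 and 6.75 against 5.16 and 5.12, and at 6.01 and 5.70 in parietal cells. Both were above glands on every chief array; parietal cells were close to chief cells for Lgr5 and closer to glands for Smoc2. Lgr5 rose by 3.68 (SE 0.46, limma adjusted p = 0.0263) and Smoc2 by 2.06 (SE 0.25, adjusted p = 0.0237). Chief minus parietal was 0.50 (SE 0.46, adjusted p = 0.702) for Lgr5 and 1.34 (SE 0.25, adjusted p = 0.348) for Smoc2, neither of which passed. Apart from Troy, whose level follows from the sort, these 2 were the only genes of the list of 22 that rose, and none fell. With Troy counted, the 3 calls became 1 without chief b, none without glands b or either parietal array, and 6 without chief c.

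The remaining Wnt genes did not pass. Troy included, the median of the list was 0.79, of the 22 genes 12 reached an unadjusted p under 0.05 as higher and 0 as lower, and in 14 all chief arrays were above glands (16.3% of all genes). Axin2, a feedback inhibitor used as a general Wnt readout, was at 6.98, 7.10 and 6.20 against 5.25 and 4.30 (adjusted p = 0.0738). Sp5, a transcription factor downstream of Wnt, was at 5.40, 5.50 and 5.35 against 4.48 and 4.50 (adjusted p = 0.0761). The ligases that remove Wnt receptors, Rnf43 and Znrf3, were at 9.61, 9.79 and 9.29 against 8.75 and 8.48 and at 9.78, 9.93 and 9.30 against 8.88 and 8.46. Nkd1, another inhibitor, was at 6.93, 6.91 and 5.84 against 5.12 and 5.27. Ascl2, the stem cell factor of the intestine, reached only 5.57, 5.78 and 5.12 against 4.41 and 4.59. Lgr4, a receptor related to Lgr5 (9.97, 9.65 and 9.50 against 9.90 and 10.34), and the cyclin Ccnd1 (9.63, 10.12 and 9.07 against 9.44 and 9.77) had overlapping groups. Lef1 and Wif1 lay below the medians on all 5 arrays.

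Among other proposed markers of gastric stem cells, 0 of 14 passed in limma, with 3 higher and 1 lower at an unadjusted p under 0.05 and a median of 0.02. When chief c or glands a was left out, 1 passed. Lrig1, a negative regulator of ErbB receptors, was at 10.25, 10.18 and 10.71 against 9.33 and 8.51 (adjusted p = 0.0870). The RNA-binding protein Msi1 was at 7.34, 7.05 and 6.12 against 5.45 and 4.86 (adjusted p = 0.113). For these genes, and for no other of the 14, every chief array was above both gland arrays. Sox2 was at 7.66, 9.02 and 6.46 against 7.03 and 6.52, Bmi1 at 7.51, 6.89 and 7.22 against 7.97 and 7.28, and Prom1 at 10.37, 10.84 and 9.25 against 10.24 and 10.03, all with overlapping groups. In the TNF receptor family of 20, no gene but the sorted Troy passed; Tnfrsf1b, the second TNF receptor, was at 5.49, 5.25 and 5.03 against 6.29 and 8.07, and the median was -0.10.

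None of 9 secreted products and regulators of chief cells was called in limma (5 at an unadjusted p under 0.05, all higher), the median was 0.53, and in 6 of the 9 every chief array was above glands (16.3% of all genes). Without glands a 2 of the 9 passed; the median was 1.10 without chief c and 0.27 without glands b. Intrinsic factor (Cblif), which binds vitamin B12, was at 13.04, 13.23 and 12.74 against 12.34 and 11.35. The lipase-related Pnliprp2 was at 12.54, 12.19 and 11.62 against 10.77 and 9.21 (adjusted p = 0.112), and the milk-clotting protease chymosin (Cym) at 11.22, 10.12 and 10.42 against 9.42 and 7.15. Bhlha15 was at 10.18, 10.26 and 8.80 against 8.74 and 6.90, so that chief c barely exceeded glands a. The groups overlapped for the pepsinogen gene Pga5 (10.47, 10.79 and 8.90 against 9.78 and 9.27). The 2 gland arrays were unequal for these genes, glands b being the lower one for each of the 5. The receptor for cholecystokinin that drives pepsinogen release, Cckar, was at 11.40, 11.58 and 10.50 against 10.25 and 8.56. In the same list of secretory receptors, the prostaglandin receptor Ptger3 was at 7.59, 7.18 and 7.02 against 6.42 and 5.31 and the secretin receptor Sctr at 8.59, 7.45 and 6.53 against 9.47 and 10.74; 0 of 18 passed (4 higher and 1 lower at an unadjusted p under 0.05), but 2 did without glands a and 1 without chief a or chief c. Genes that fold proteins in the endoplasmic reticulum had a median of 0.22, with none of 26 called (6 higher and 1 lower at an unadjusted p under 0.05). The median was 0.58 and 2 passed when chief c was left out, and 1 passed without glands a. Syvn1, a ligase that clears misfolded proteins, was at 10.57, 10.11 and 9.78 against 9.00 and 8.79 (adjusted p = 0.0889), and the oxidase Ero1a at 8.73, 8.00 and 8.27 against 9.20 and 10.62.

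Gkn3, a gastrokine of the mucous neck cell list, was the only call among 7 neck cell genes. It was at 12.09, 12.41 and 11.43 in chief cells, 10.07 and 9.03 in glands and 10.94 and 10.72 in parietal cells, a rise of 2.43 (SE 0.37, limma adjusted p = 0.0462). The gland mucin Muc6 was at 12.81, 13.18 and 12.42 against 12.73 and 12.14, and the neck cell peptide Tff2 at 12.35, 12.83 and 12.15 against 12.71 and 12.83. Groups overlapped for both, as for all of the 7 except Gkn3. The call was lost without chief a, chief b, glands b or either parietal array. The list median was 0.07, and from -0.25 (without glands b) to 0.56 (without chief c) when single arrays were left out.

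A few further genes rose that belong to neither handling nor identity lists. Slc1a2, a glutamate transporter best known from astrocytes, was at 9.56, 9.50 and 8.79 in chief cells, 7.16 and 5.69 in glands and 8.04 and 7.81 in parietal cells. It rose by 2.86 (SE 0.43, limma adjusted p = 0.0415). Ccnjl, a cyclin-like gene, was at 6.35, 6.87 and 6.38 against 4.64 and 3.95 and rose by 2.24 (SE 0.29, adjusted p = 0.0304). Pappa, a protease that frees insulin-like growth factors from their binding proteins, was at 7.15, 7.56 and 7.43 against 6.06 and 5.41, and its parietal levels of 7.55 and 7.66 were at least as high. It rose by 1.65 (SE 0.24, adjusted p = 0.0381). The lipocalin Lcn12 rose by 1.69 (SE 0.22, adjusted p = 0.0306) and the monocarboxylate transporter family member Slc16a4 by 1.17 (SE 0.17, adjusted p = 0.0382). The chief and parietal levels of Slc16a4 lay between 4.90 and 5.51, near or below the array medians.

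**Figure D4:**
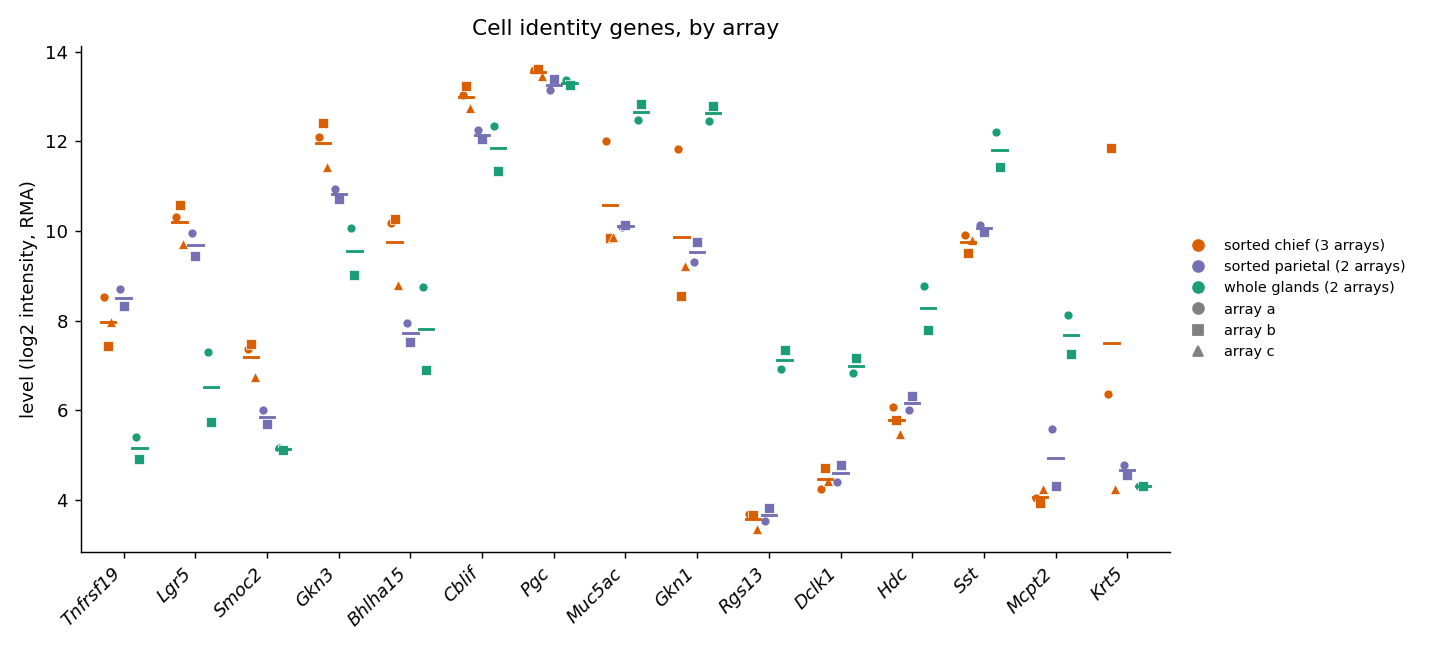
Level (log2 intensity) of 15 genes of cell identity on each of 7 arrays; colour gives the group, the symbol the array letter and the bar the group mean. Lgr5, Smoc2 and Gkn3 lie above glands on every chief array, Rgs13, Dclk1, Hdc, Sst and Mcpt2 below them, Muc5ac and Gkn1 are high on chief a, and Krt5 is high on chief b.

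Transcripts of rarer gland cells were lost, tuft cells most of all. In such bulk samples fewer cells of a type and less RNA per cell cannot be told apart. Rgs13, a regulator of G protein signalling, was at 3.69, 3.66 and 3.35 in chief cells against 6.92 and 7.34 in glands. The tuft cell kinase Dclk1 was at 4.24, 4.71 and 4.43 against 6.82 and 7.16. Every sorted array lay below its median for both, parietal arrays included. Rgs13 fell by 3.56 (SE 0.22, limma adjusted p = 0.000813) and Dclk1 fell by 2.53 (SE 0.23, adjusted p = 0.00506), while another probeset of Dclk1, dimmer in glands, gave a difference of 0.39. The taste channel Trpm5 fell by 1.91 (SE 0.29, adjusted p = 0.0462), the taste G protein Gnat3 fell by 1.90 (SE 0.21, adjusted p = 0.0154) and the adaptor Fyb fell by 1.30 (SE 0.19, adjusted p = 0.0371). These were 5 of 19 tuft cell genes, none rose, and the median was -1.20; in 13 of the 19 every chief array was below glands, against 15.1% of all genes. The 5 became 3 without chief b, 1 without glands b and 2 without either parietal array. The master factor of the lineage, Pou2f3, was at 4.61, 5.18 and 4.87 against 5.52 and 5.64.

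The enzymes of leukotriene synthesis, made by tuft cells and by leukocytes, included a further loss. Alox5, named after its value was seen, was at 4.21, 4.03 and 4.29 against 6.09 and 6.24 and fell by 1.99 (SE 0.17, limma adjusted p = 0.00506). Its partner Alox5ap was at 4.81, 4.26 and 3.63 against 6.08 and 6.27 (adjusted p = 0.0604), and Ltc4s, which makes the cysteinyl form, at 4.52, 4.22 and 4.32 against 5.54 and 6.18 (adjusted p = 0.0513). Ptprc, the general leukocyte marker CD45, was at 3.96, 4.44 and 4.50 against 4.57 and 4.30, with overlapping groups.

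One mast cell gene of the leukocyte list fell. Mcpt2, a mucosal mast cell protease, was at 4.04, 3.92 and 4.23 in chief cells, 8.12 and 7.25 in glands and 5.57 and 4.31 in parietal cells, and fell by 3.62 (SE 0.40, limma adjusted p = 0.0154). It was the 1 call among 24 leukocyte genes, whose median was 0.04, and it was lost without chief b. The mast cell carboxypeptidase Cpa3 was at 3.60, 3.71 and 3.42 against 5.44 and 4.70 (adjusted p = 0.0556). Serglycin (Srgn), the granule proteoglycan of mast cells and other blood cells, fell by 1.31 (SE 0.19, adjusted p = 0.0371).

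Among endocrine genes, Hdc, which makes histamine in enterochromaffin-like cells and in mast cells, was at 6.08, 5.79 and 5.48 in chief cells against 8.78 and 7.78 in glands. The hormone somatostatin (Sst) was at 9.92, 9.52 and 9.80 against 12.22 and 11.42. Hdc fell by 2.50 (SE 0.32, limma adjusted p = 0.0293) and Sst fell by 2.07 (SE 0.26, adjusted p = 0.0278). Sst stayed well above the array median in chief cells, and parietal cells were alike at 10.14 and 9.98. These were 2 of 24 genes, with a median of -0.34 and 12 genes below glands on every chief array, against 15.1% of all genes. Both were lost without chief b and without either parietal array. Ghrelin (Ghrl) was at 11.12, 11.15 and 8.88 against 11.93 and 11.74, and gastrin (Gast), a hormone of the antrum, at 10.91, 7.66 and 9.06 against 5.30 and 8.88. Isl1, an endocrine lineage factor, was at 8.94, 9.09 and 8.05 against 7.72 and 7.03.

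Much of the remaining loss was in genes that stood in no cell type list. Mogat1, an acyltransferase of fat synthesis, was at 6.38, 4.54 and 4.41 in chief cells against 9.19 and 10.83 in glands. The alarmin Il33 was at 5.59, 4.26 and 4.60 against 7.71 and 9.49, and Plac8, a small cysteine-rich protein, at 6.58, 5.23 and 5.29 against 8.67 and 10.10. In each, chief a was the highest chief array and glands b was above glands a. Mogat1 fell by 4.90 (SE 0.66, limma adjusted p = 0.0316), Il33 fell by 3.78 (SE 0.55, adjusted p = 0.0381) and Plac8 fell by 3.69 (SE 0.51, adjusted p = 0.0355). The same order of arrays was seen for the glutathione transferase Gsta3, the ferlin family member Fer1l4, the glycine-cleaving enzyme Gldc and the lipopolysaccharide receptor Tlr4. Their differences were -3.09, -3.62, -3.10 and -2.78, with limma adjusted p of 0.0355, 0.0381, 0.0371 and 0.0355. Sprr2a1, a small proline-rich protein of barrier epithelia, was bright throughout, at 10.14, 9.84 and 9.73 against 12.20 and 11.98, and fell by 2.19 (SE 0.19, adjusted p = 0.00506). The mucosal chemokine Cxcl17 was at 8.23, 8.20 and 7.03 against 10.18 and 10.22 and fell by 2.38 (SE 0.35, adjusted p = 0.0413).

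None of 14 pit cell genes passed in limma, although their median was -1.53 and 9 of them, with no gene higher, reached an unadjusted p under 0.05. Gkn1, a gastrokine, was at 11.84, 8.55 and 9.23 against 12.46 and 12.80, and the trefoil peptide Tff1 at 12.42, 9.66 and 10.36 against 12.79 and 13.08. The protease Capn9 was at 6.31, 3.90 and 4.25 against 7.59 and 9.54 (adjusted p = 0.0965). Chief a again stood near glands. Without chief a, 6 of the 14 passed, and without glands a 1 did. By array the median of the list was -0.53 in chief a, -2.28 in chief b and -2.41 in chief c. Among lower genes outside any list, Atp6v0d2, a subunit of the vacuolar proton pump, was at 3.86, 3.89 and 3.88 against 7.12 and 6.40. It fell by 2.88 (SE 0.23, adjusted p = 0.00415). The aldehyde oxidase Aox3 fell by 2.29 (SE 0.19, adjusted p = 0.00415). The acetylcholinesterase anchor Prima1 fell by 3.16 (SE 0.40, adjusted p = 0.0263), from 7.30 and 8.43 to 4.95, 5.06 and 4.10. For Atp6v0d2, Aox3 and Prima1 every chief array lay below its array's median. Of 19 genes of granule traffic, Rab3c and Sytl5 fell, with differences of -1.78 and -1.58; neither passed without chief b, glands b or either parietal array, and 1 did without glands a. The granule traffic list had a median of -0.54, with none higher and 7 lower at an unadjusted p under 0.05. In 8 of its 19 genes every chief array was below both gland arrays, against 15.1% of all genes. Teddm3, Gsdmc2, Tm4sf5 and Syt16 were the other genes among the 30 largest falls, with differences of -3.44, -2.91, -2.90 and -2.89. Efcab1, a calcium-binding protein, was at 3.47, 3.77 and 3.56 against 6.12 and 6.07 (adjusted p = 0.00253). Other lower genes included 1700016K19Rik, St6gal2, Fhl2, Basp1, 9130008F23Rik, Mtcl1, Timp4, Gsta4, Sh2d7, Dnajb7, Hmgn3, Ppp2r1b, Car13, Pik3r5, Dio1 and Calml4, with differences from -2.60 to -1.16.

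The other lists gave few or no calls in limma. Proliferation genes had a median of -0.86 with 0 of 23 called (none higher and 6 lower at an unadjusted p under 0.05), and replication-type histones one of -0.50 with 0 of 35 (none and 14). Interferon and MHC genes had -0.48 with 0 of 22 (none and 7), cytosolic ribosomal proteins -0.13 with 0 of 73 (none and 3), and respiratory chain genes -0.08 with 0 of 79 (2 and none). For stroma the median was -0.03 (0 of 16 called, none and none), for endothelium 0.14 (0 of 11, 1 and none) and for parietal cells -0.09 (0 of 19, 2 and none). With single arrays left out, the proliferation median ran from -1.21 (without chief b) to -0.34 (without chief c), and that of the interferon and MHC genes from -0.82 (without glands a, where 5 passed) to -0.20 (without glands b). The respiratory chain median ran from -0.38 without chief c to 0.23 without chief b, and the parietal median from -0.24 without chief c to 0.35 without chief b. Those of stroma (-0.22 to 0.17) and endothelium (-0.04 to 0.30) also changed sign. Histones kept a negative median (-0.64 to -0.35), with 2 called without chief a, as did ribosomal proteins (-0.16 to -0.12). In further lists without a call, the genes with the largest moderated t included the cytochrome Cyp2c65, at 8.34, 6.84 and 5.49 against 10.06 and 11.14, the keratin Krt19, at 10.84, 9.31 and 10.27 against 11.40 and 12.39, the BMP target Id1, at 8.31, 7.97 and 7.46 against 8.76 and 10.03, and the BMP ligand Bmp7, at 9.05, 9.10 and 8.79 against 8.39 and 7.78. None of these 4 passed.

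The 3 chief arrays differed in which other cell type's transcripts they held. On chief b, genes of stratified squamous epithelium, which lines the forestomach, were high: Krt5 was at 6.37, 11.85 and 4.25 in chief cells and at 4.30 in both gland arrays, and the squamous factor Trp63 at 5.00, 8.33 and 4.88 against 4.42 and 4.33. The median of 18 squamous genes was 2.22 on chief b, 0.04 on chief a and 0.08 on chief c, and none passed in limma (1 higher and none lower at an unadjusted p under 0.05). Pit cell genes stood nearest to glands on chief a, with a list median of -0.53, against -2.28 on chief b and -2.41 on chief c. Lypd8, which is not in the pit cell list, was also highest on chief a, at 10.50, 6.88 and 7.08 against 10.85 and 12.85. On chief c parietal transcripts were highest, with a list median of 0.46, against 0.16 on chief a and -0.72 on chief b; the somatostatin receptor Sstr2 was at 8.11, 6.49 and 9.95 against 8.71 and 8.25. Kdelr3, which retrieves proteins to the endoplasmic reticulum, was at 9.11, 8.66 and 6.44. All of the genes in this paragraph were picked with their values known. The early response, Wnt and chief cell lists kept a positive median on each chief array (0.58 to 1.46, 0.63 to 1.09 and 0.39 to 1.27), and the small nucleolar and tuft lists a negative one (-1.50 to -1.11 and -1.38 to -0.99). The part of squamous, pit and parietal cell transcripts in these results was not tested beyond leaving out arrays.

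**Figure D5:**
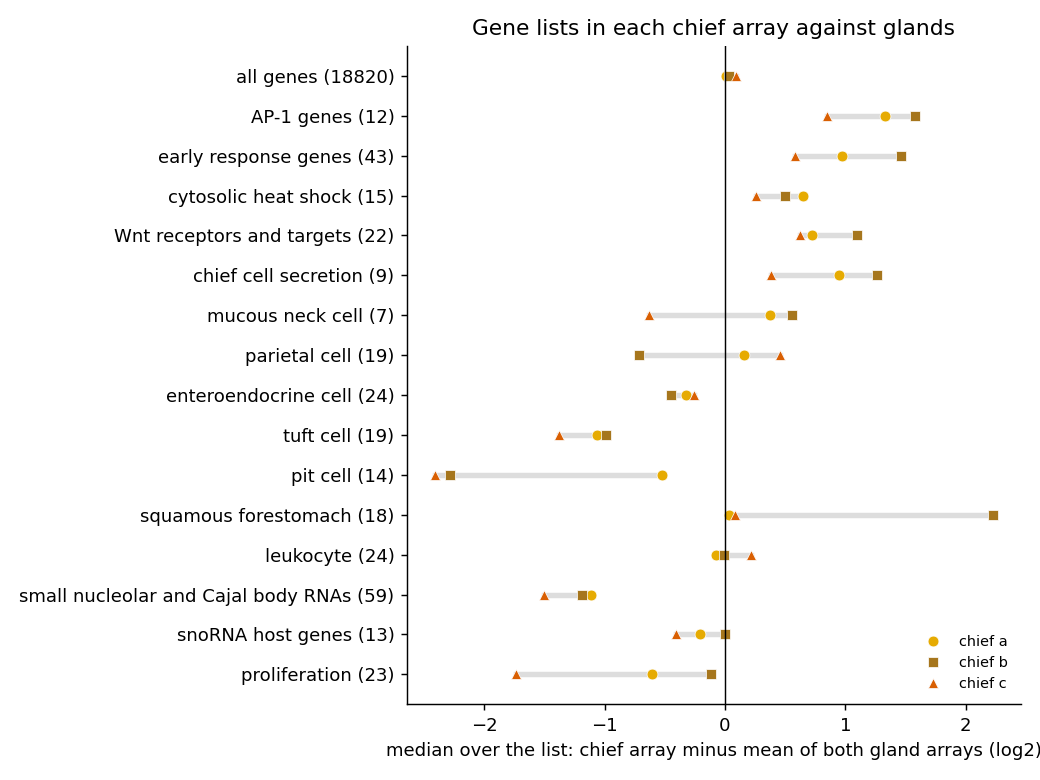
Median over each gene list (number of genes in brackets) of the log2 level on 1 chief array minus the mean of both gland arrays; symbols mark chief a, b and c and the grey bar spans them. Pit, parietal, squamous and proliferation genes spread widely between arrays, whereas tuft and small nucleolar RNA lists are negative and AP-1, early response and Wnt lists positive on all 3.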

How the data were processed

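RNA was extracted with Trizol and RNeasy columns and labelled with biotin, per the labels' protocols. The authors deposited log2 values for 35556 probesets on 13 arrays, made with RMA and Affymetrix Power Tools per the submitters' processing notes (no version is stated there). Since RMA equalises the distributions of arrays, a shift common to most genes is removed. The number of arrays limits the precision.

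Probesets were named through the platform annotation: 21218 had 1 symbol, 1881 several and 12457 none, and only the first kind was named (21185 matched to RefSeq, GRCm38.p6, 0 symbols updated). Each of 18820 genes was its brightest such probeset over 7 arrays (1386 genes had several). Chief, parietal and gland arrays, 7 in all, were fitted with a mean per group in limma 3.58.1 (R 4.3.3), and adjusted p-values are Benjamini-Hochberg values over all genes, with a threshold of 0.05. The 51 gene lists and the members were chosen with earlier results of these data known. Named were Tnfrsf19, Lgr5 and Muc5ac, the higher genes, the 30 largest falls, and from each list up to 6 called genes or the 2 with the largest moderated t; other list members and called genes were chosen after their values were seen, for their role. Alternatives were a second quantile normalization, median centring, no dim genes, trend and robust eBayes, array weights, 5 arrays, means of probesets, every probeset, a replicate block and leaving out each array. The organoid arrays were not used here. One called gene is not reported here.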

Additional observations from a re-analysis of the deposited data

How the results depend on the processing

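The counts of 24 higher and 66 lower genes moved with the pool of arrays more than with the scale of the values. Array weights gave 42 and 105, and only the 5 chief and gland arrays gave 4 and 18, a fit with fewer samples; chief minus parietal could not be fitted there. Testing every probeset gave 6 higher and 46 lower. Letters a and b recur in each group, but same-lettered chief and gland arrays deviated with correlations of -0.340 and -0.113 and same-lettered chief and parietal arrays with 0.226 and 0.106; the signs differ and no label gives the letters a meaning, so they were taken as names; with the letter as a replicate block, in which chief c drops out, 130 genes were higher and 94 lower than in glands, and 1658 differed between chief and parietal cells. Leaving out each array in turn gave 4 to 223 higher genes, 13 to 217 lower genes and 0 to 1318 between chief and parietal cells, the last without chief c. A second quantile normalization (19 and 52), median centring (22 and 72), leaving out dim genes (25 and 75), trend and robust eBayes (25 and 73) and means of probesets (23 and 63) stayed within 1.5 times. The causes were not tested. None of the 24 and 66 genes changed direction in any of these fits of genes. For fits that only left out or weighted arrays this was fixed in advance. In each of these genes every chief array lay beyond both gland arrays.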
